A study of Homo sapiens with 8 samples.

Results

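The open chromatin described here is that of the MYC locus and the gene desert around it in H1650, an established human non-small cell lung cancer line. Members were taken as every merged peak region that overlapped chromosome 8 from 127.50 to 130.80 Mb of hg19, which gave 91 of the 46665 regions in the series. Within this window of 3.30 Mb, MYC lies from 128.748 to 128.754 Mb and PVT1 starts at 128.807 Mb. These positions are known here to the nearest kb, so every distance below, from a region's midpoint to the MYC start, carries that rounding. ATAC-seq, which marks open chromatin by transposase insertion, was run on 4 groups of 2 libraries. Untreated cells had no transfection. The siControl cells received a non-targeting siRNA pool, the siMena11a cells a mix of 3 siRNAs against exon 11a of hMENA, and the siMena cells an siRNA pool against hMENA as a whole, each at 20 nmol/L with a lipid reagent. The protein hMENA, encoded by ENAH, regulates actin filaments, and hMENA11a is its epithelial isoform. The lists hold peak calls only, so they carry no mark that separates an enhancer from other open chromatin, and all members are called regions. They measure no RNA either, so the knockdown itself was not checked here, and H1650 is a single line.

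MYC encodes a transcription factor that drives growth, ribosome production and cell cycle entry, and its level is raised in many tumours. The gene sits almost alone in a long stretch with few protein-coding genes, and much of its control comes from enhancers far up- and downstream that differ between tissues. PVT1 is a long non-coding RNA gene next to MYC whose promoter and gene body take part in that control, and the stretch beyond it holds enhancers that are amplified in some lung cancers. In RefSeq's gene order (GRCh38.p14, used for names alone), POU5F1B and LRATD2 are the nearest protein-coding genes before MYC, and GSDMC and CYRIB those after it.

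The 8 lists differed widely in length, and this sets what can be read from them. They ran from 1020 to 35472 peaks, with the 3 shortest all in replicate 2 of a transfected group. The genome-wide background (tags expected at any position) was 0.538 to 0.935 in replicate 1 libraries and 1.09 to 2.88 in replicate 2 libraries, so the shortest lists had the most tags per position. Fold below means the authors' value for a peak, its summit tags over the local background after adding 1 to both. Among the 501 regions on assembled chromosomes that all 8 lists held, the median fold was 9.21 to 11.7 in replicate 1, 10.1 in untreated replicate 2 and 4.59 to 6.78 in the other replicate 2 libraries. The deposited names of the 4 replicate 2 lists share a prefix that those of replicate 1 lack, and the labels do not say whether it marks a batch. Nothing there says whether replicates came from separate cultures. The p-values below therefore compare each difference only with regroupings of these libraries and do not extend to other cultures.

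Untreated replicate 1 listed 74 of the 91 members, siControl replicate 1 listed 59, siMena11a replicate 1 listed 66 and siMena replicate 1 listed 32. In replicate 2, untreated cells had 47 members, siControl 8, siMena11a 5 and siMena 1. Every replicate 2 library thus held fewer members than replicate 1 of its group. As a share of all peaks in the list, the window held 0.221% and 0.219% in the untreated replicates, 0.227% and 0.153% in siControl, 0.186% and 0.177% in siMena11a, and 0.232% and 0.0980% in siMena. The last of these shares is 1 peak. The number of members broadly followed the length of the list, although siMena11a replicate 1, the longest, held fewer than untreated replicate 1. The window's share was thus not even, being highest in replicate 1 and lowest in replicate 2 of siMena and siControl cells.

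**Figure D1:**
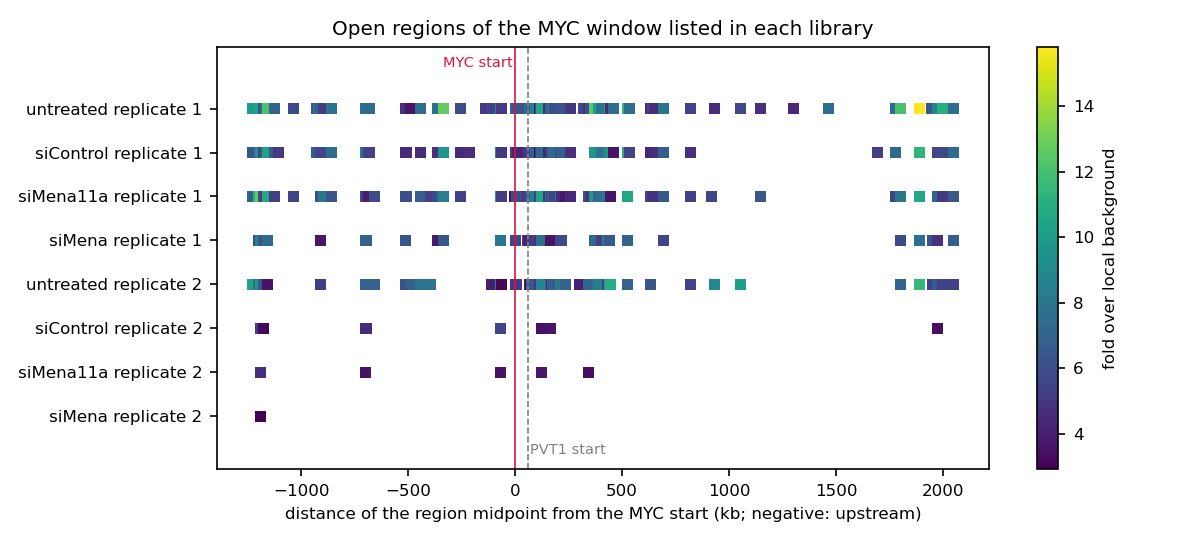
Listing and fold of the 91 regions around MYC. Each square is a region, placed by its distance from the MYC start (x axis, kb, negative values upstream) in the row of the library that lists it (y axis) and coloured by its fold over local background. The rows hold 74, 59, 66, 32, 47, 8, 5 and 1 regions from top to bottom, and the only position filled in all rows lies 1188 kb upstream.

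Open regions were most dense in 1 part of the downstream side, while that side as a whole held 26.8 members per Mb against 28.8 upstream. From 50 to 500 kb downstream there were 28 members, or 6.22 per 100 kb, of which 18 (64.3%) were listed in 4 or more libraries. The stretch from 50 to 500 kb upstream is equally long and held 14 members, 5 of them in 4 or more libraries. Density was 4.0 per 100 kb within 50 kb of the MYC start, 3.63 beyond 1000 kb upstream, 2.40 and 2.2 from 500 to 1000 kb up- and downstream, and 1.24 beyond 1000 kb downstream. The widest gap without any region was 229 kb, between 130215016 and 130444132. The concentration from 50 to 500 kb downstream was present in each of the 5 longer lists. In untreated replicates 1 and 2, 35.1% and 36.2% of the members lay there. Replicate 1 of siControl had 33.9% there, siMena11a 36.4% and siMena 40.6%. The 3 short lists had 2 of 8, 2 of 5 and 0 of 1 members there.

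**Figure D2:**
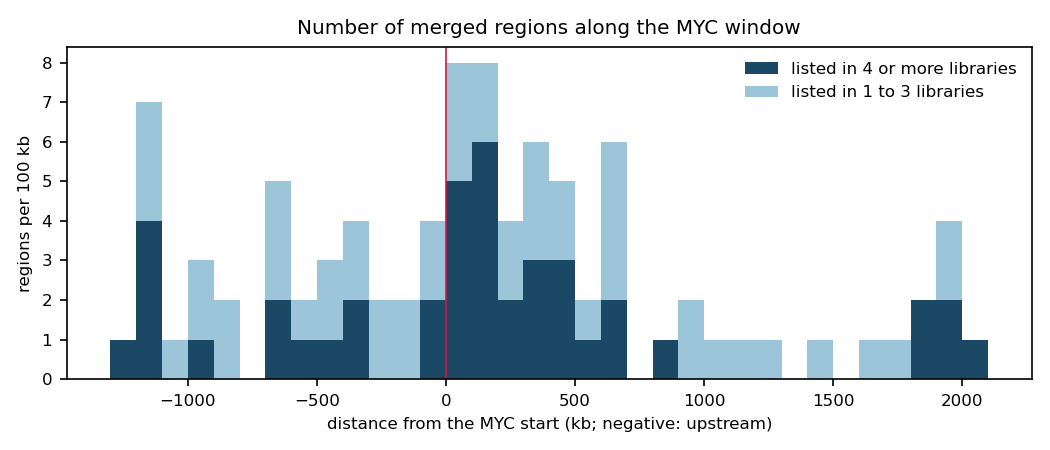
Number of merged regions along the window. Bars count regions per 100 kb by distance from the MYC start (x axis, kb, negative values upstream), with regions in 4 or more libraries in dark blue and those in 1 to 3 libraries in light blue. The highest bars, of 8 regions each, cover the first 200 kb downstream of MYC.

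The region over the MYC start was open with a low fold. It spans 128748105 to 128748714 (610 bp) and was listed in 5 libraries, with folds of 6.84 and 4.56 in untreated replicates 1 and 2 and, in replicate 1, of 4.59 in siControl, 3.78 in siMena11a and 5.68 in siMena cells. The 3 transfected replicate 2 libraries did not list it, and the untreated values enclose those of siControl and siMena. The summit held 38, 29, 34, 34 and 30 tags in the same order, against local backgrounds of 4.70, 5.58, 6.62, 8.26 and 4.46 tags. The low fold in siMena11a replicate 1 therefore went with the highest local background, while its tags equalled those of siControl replicate 1. Relative to the genome-wide background the tags were 70.6, 26.6, 36.4, 38.6 and 41.4, so the 3 transfected libraries lay between the untreated replicates on this scale. Within their own lists these folds had percentiles of 47.7, 13.2, 12.1, 3.17 and 39.2. Among members, the MYC start ranked 38 of 74 by fold in untreated replicate 1 and 41 of 47 in untreated replicate 2. In replicate 1 of the transfected groups it ranked 49 of 59 in siControl, 63 of 66 in siMena11a and 20 of 32 in siMena cells.

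Close to MYC there were 3 more regions, each in few libraries. One from 128746330 to 128746551, about 1.6 kb upstream of the start, was listed in siMena11a replicate 1 alone, with a fold of 3.06 and 26 tags. Its −log10 q was 4.69, above the list's limit of 2.00. A region 7.4 kb downstream of the start (128755289 to 128755560), past the end of MYC, had folds of 5.66 in siControl replicate 1, 5.84 in siMena11a replicate 1 and 5.16 in untreated replicate 2. Another at 13.3 kb (128761007 to 128761678) was listed in untreated and siControl replicate 1, with folds of 6.38 and 4.19. No region within 50 kb of the MYC start was listed in replicate 2 of a transfected group.

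At the start of PVT1 a region from 128806079 to 128806886 (808 bp) was listed in all 4 replicate 1 libraries and in no replicate 2 library. Its fold was 6.10 for untreated cells, and 4.53 for siControl, 4.94 for siMena11a and 4.67 for siMena, from 19, 20, 22 and 16 tags. The 3 transfected values lie close together, below the untreated one, with 1 library each. Its percentile in the list was 33.9, 11.1, 18.2 and 14.4, all in the lower part of the list. The MYC start had 47.7, 12.1, 3.17 and 39.2 in the same lists. It was thus higher than the PVT1 start in untreated and siMena, close to it in siControl and lower in siMena11a replicate 1.

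Past the PVT1 start came a chain of regions, and whether each lies inside the PVT1 gene was not analysed here. Replicate 1 values below are in the order untreated, siControl, siMena11a, siMena unless others are named. At 65 kb from MYC (128813018 to 128813506) the folds were 7.56, 5.37, 5.51 and 3.91 in replicate 1 and 3.59 in untreated replicate 2. At 74 kb (128821913 to 128822946) they were 6.87, 5.57, 7.07, 4.79 and 6.30 in the same order. Both were in the same 5 libraries as the MYC start. At 124 kb lay a region (128871802 to 128872707) that 7 libraries listed, all but siMena replicate 2. Its folds were 10.6, 7.19, 10.5 and 7.64 in replicate 1, 8.75 in untreated replicate 2, and 3.47 and 3.77 in siControl and siMena11a replicate 2. It belonged to a run of 5 regions spanning 28.9 kb, from 128843759 to 128872707, each less than 20 kb from the next, of which 4 were in at least 4 libraries. A second run of 5, from 128902261 to 128931174, also spanned 28.9 kb. Its most widely listed region, at 164 kb (128911234 to 128912019), had folds of 6.91, 5.59, 7.97 and 3.55 in replicate 1, 7.81 in untreated replicate 2 and 3.62 in siControl replicate 2. At 214 kb (128961768 to 128962495) the folds were 6.39, 5.56, 8.23 and 5.69 in replicate 1 and 8.17 in untreated replicate 2, so siMena11a replicate 1 and untreated replicate 2 were the high libraries at both positions.

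A stretch from 373 to 441 kb downstream of MYC carried several of the stronger members. The region at 373 kb (129121140 to 129121609) had folds of 12.5, 9.73, 9.64 and 7.32 in replicate 1 and 7.29 in untreated replicate 2. At 392 kb (129139824 to 129140446) the folds were 10.2, 9.58 and 7.10 in the first 3 of these groups and 8.37 in untreated replicate 2, and siMena cells did not list it. At 441 kb (129188710 to 129189646) they were 10.0, 9.49, 8.05 and 6.48 in replicate 1 and 9.76 in untreated replicate 2. These 3 regions had their highest fold in untreated replicate 1. The neighbour at 433 kb (129180112 to 129181160) went against that order, with 8.18 in siMena, 8.06 in siMena11a, 7.93 in siControl and 7.99 in untreated replicate 1, and 5.60 in untreated replicate 2. No transfected replicate 2 library listed any of these 4.

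The strongest member of the window by its median percentile lay near the far end, 1892 kb downstream of MYC. This region, from 130639323 to 130640031, had folds of 15.8 and 11.5 in untreated replicates 1 and 2, 11.3 in siControl, 10.6 in siMena11a and 7.61 in siMena replicate 1. Its percentile was 99.7, 97.5, 95.8, 91.7 and 79.9 in those lists, yet none of the 3 short lists had it. At 523 kb (129270815 to 129271316) the folds were 11.5, 10.9, 10.6 and 7.08 in replicate 1 and 6.92 in untreated replicate 2. The region of that side listed most often beyond 1000 kb was at 1972 kb (130719908 to 130720666), in 6 libraries, with folds of 8.63, 5.72, 7.03 and 4.79 in replicate 1, 6.59 in untreated replicate 2 and 3.41 in siControl replicate 2.

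Upstream, the only member in all 8 libraries was a region of 1131 bp from 127559061 to 127560191, 1188 kb before MYC and nearer the edge of the window than the gene. Its folds were 10.5 and 9.57 in untreated replicates 1 and 2, 9.54 and 5.23 in siControl, 12.7 and 4.65 in siMena11a, and 8.90 and 2.92 in siMena. Replicate 2 was lower in each group, and the lowest of all these folds was that of siMena replicate 2. Relative to each library's median at the 501 regions, these folds were 0.90, 0.949, 0.891, 0.771, 1.17, 0.824, 0.966 and 0.636 in the same order. It belonged to a run of 5 regions over 44.2 kb, from 127548706 to 127592858, of which 4 were in at least 4 libraries. The first of the run (127548706 to 127549194, 1199 kb upstream) had folds of 10.2, 6.67, 11.2 and 5.60 in replicate 1 and 7.69 in untreated replicate 2, and the region at 1178 kb (127569880 to 127571004) had 6.14, 5.47, 6.00 and 6.40, with 6.45 in untreated and 3.13 in siControl replicate 2. The last (127592034 to 127592858, 1156 kb upstream) had folds of 12.1, 10.3, 10.7 and 7.25 in replicate 1 but only 3.57 in untreated replicate 2.

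Between these and MYC, 3 upstream regions stood out. At 700 kb (128047683 to 128048458) 7 libraries listed a region, with folds of 7.33, 8.45, 8.06 and 6.28 in replicate 1, 6.71 in untreated replicate 2, and 3.96 and 3.55 in siControl and siMena11a replicate 2. Its neighbour at 697 kb (128050887 to 128051288) had 7.80, 7.97, 6.29 and 6.93 in replicate 1, 6.99 in untreated replicate 2 and 4.43 in siControl replicate 2. At 67 kb (128680686 to 128681542), the closest strong region before the gene, the same 7 libraries had folds of 8.66, 9.14, 9.98 and 7.97 in replicate 1, 8.75 in untreated replicate 2, and 5.64 and 3.56 in the 2 others. At 335 kb (128413056 to 128413851) the folds were 12.7, 9.70, 8.38 and 6.34 in replicate 1, and no replicate 2 library, untreated cells included, listed it. The 2 regions in 7 libraries thus kept a similar fold over replicate 1 and untreated replicate 2, while that at 335 kb was high in untreated replicate 1 and missing in its replicate.

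**Figure D3:**
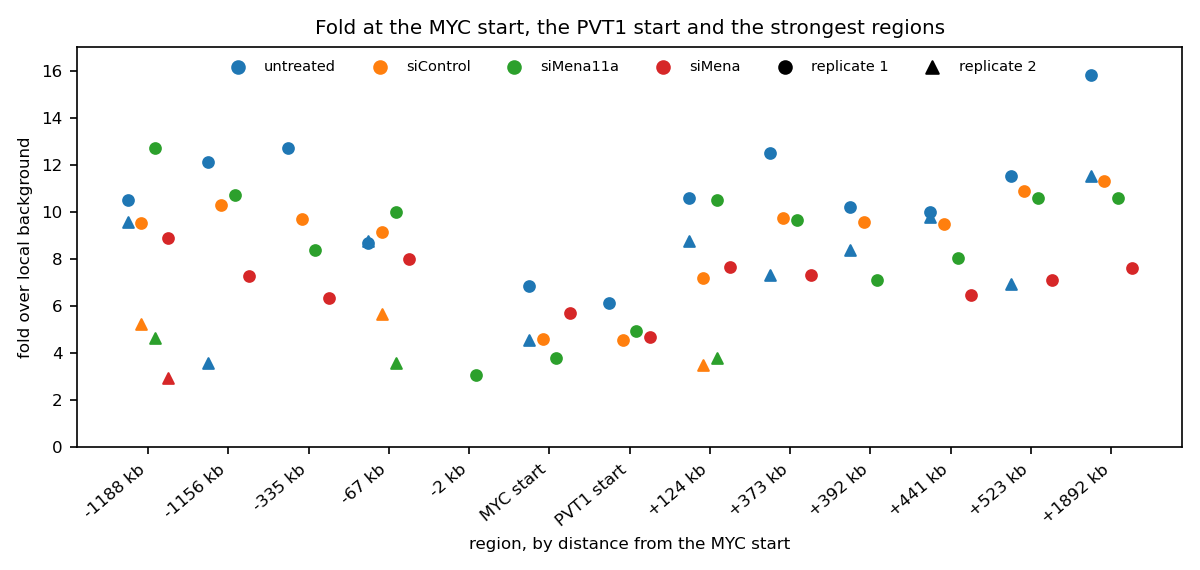
Fold at the MYC start, the PVT1 start, the other region near the MYC start and the 10 members with the highest median percentile. Each point is the fold over local background (y axis) in 1 library that lists the region, with colour for the group, circles for replicate 1 and triangles for replicate 2, and regions ordered by distance from the MYC start. The points at the MYC start lie from 3.78 to 6.84, and those of the region 1892 kb downstream from 7.61 to 15.8.

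Members were listed in about as many libraries as regions of the adjacent windows. Of the 91, 20 (22.0%) were in 1 library and 42 (46.2%) in 4 or more, against 31.2% and 38.2% of all 46665 regions. In all 8 libraries there was 1 member (1.1%) against 1.16% of all regions. The adjacent windows of the same length held 107 regions upstream, of which 20.6% were in 1 library and 48.6% in 4 or more, and 75 downstream, of which 28% and 38.7% were. Regions covered 45.0 kb of the MYC window (1.36%), 52.7 kb (1.60%) of the window upstream and 35.8 kb (1.08%) of that downstream. The window around MYC therefore stood between its neighbours in the shares listed in 1 and in 4 or more libraries and in the length covered. Its share in all 8 libraries was below that of both, which was 6.54% upstream (7 regions) and 1.33% downstream (1 region). The median width was 213 bp for members in 1 library and 666 bp for those in 4 or more, and merging by itself widens a region as more lists add peaks to it. Untreated libraries held 82 of the 91 members. Of the 91, 15 (16.5%) were in untreated libraries only, against 17.3% of all regions, and 9 (9.89%) in transfected libraries only, against 18.4%. All 4 replicate 1 libraries listed 30 members, of which 22 were also in untreated replicate 2, and 3 members were in no replicate 1 library. The transfected replicate 2 libraries held 9 different members in all.

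In the 3 transfected groups most members of the replicate 1 list were absent from replicate 2, while in untreated cells 39 of 74 were present. In siControl cells 8 of the 59 members of replicate 1 (13.6%) were in replicate 2, against 17.2% of all regions on assembled chromosomes. The same shares were 5 of 66 (7.58%) against 6.84% in siMena11a cells, 1 of 32 (3.12%) against 4.48% in siMena cells, and 52.7% against 51.3% in untreated cells. At a replicate 1 fold under 5, where the MYC start lay in siControl and siMena11a cells, replicate 2 listed 0 of 16 and 0 of 13 members, and 3.03% and 0.874% of all such regions. Between 5 and 7, the band of the MYC start in siMena cells, it listed 0 of 16 members and 1.78% of all regions. Most regions in these bands were missing from replicate 2, as was the MYC start, and the reason for its absence was not tested. The highest band, a fold of 9 or more, went both ways. In siControl cells 2 of 9 members were in replicate 2 (22.2%) against 52.3% of all regions. In siMena11a cells 3 of 8 were (37.5%) against 24.2%, and in untreated cells 12 of 13 (92.3%) against 85.1%. These differences were not tested, since neighbouring regions are not replicates.

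**Figure D4:**
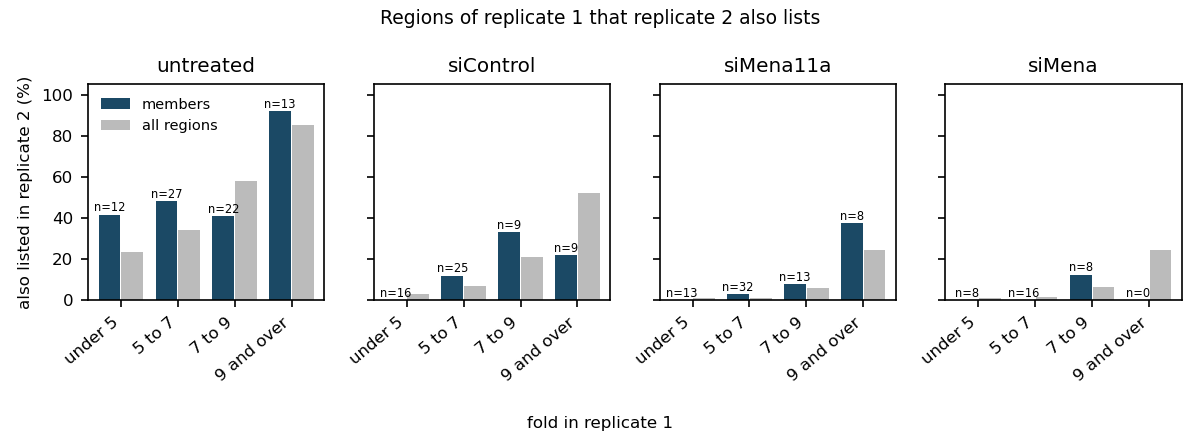
Share of replicate 1 regions that replicate 2 of the same group also lists. Bars give the percentage (y axis) by band of the replicate 1 fold (x axis) for members (dark blue, with their number above) and for all regions on assembled chromosomes (grey), 1 panel per group. In the transfected groups no member with a fold under 5 was listed again, and the share of all regions rose from 3.03% to 52.3% over the bands in siControl cells.

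Where both replicates listed a member, the fold was lower in replicate 2 in every transfected case. The median ratio of replicate 2 to replicate 1 was 0.896 over 39 members in untreated cells (0.796 over all regions on assembled chromosomes in both), 0.564 over 8 members in siControl (0.574) and 0.367 over 5 members in siMena11a cells (0.484). The 1 member in both siMena libraries had a ratio of 0.328, against a median of 0.531. All 14 transfected ratios were below 1, and 15 of the 39 untreated ones were above it. Across members listed in 2 replicate 1 libraries, folds went together, with a Spearman rho from 0.533 (untreated and siMena, 31 members) to 0.770 (untreated and siControl, 54 members). These are descriptions over regions that share each library's depth and background.

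The local background at member summits was above that of the rest of the genome in every library. Its median, relative to the genome-wide background, was 3.38, 3.21, 3.14 and 3.14 in replicate 1, against 2.53, 2.27, 2.43 and 2.23 over all assembled chromosomes. In replicate 2 the values were 3.18, 2.98, 2.65 and 2.51 (the last from 1 summit) against 2.02, 1.45, 1.45 and 1.61. No summit of the window in replicate 2 lay within 1.1 times the genome-wide background, while 8.32% to 21.3% of all summits did. The adjacent windows had medians of 3.03 to 4.28 in replicate 1 and 1.55 to 3.19 in replicate 2, so a high background was not special to MYC. By the definition of the fold, a higher background lowers it for a given number of tags. What sets the background was not tested.

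**Figure D5:**
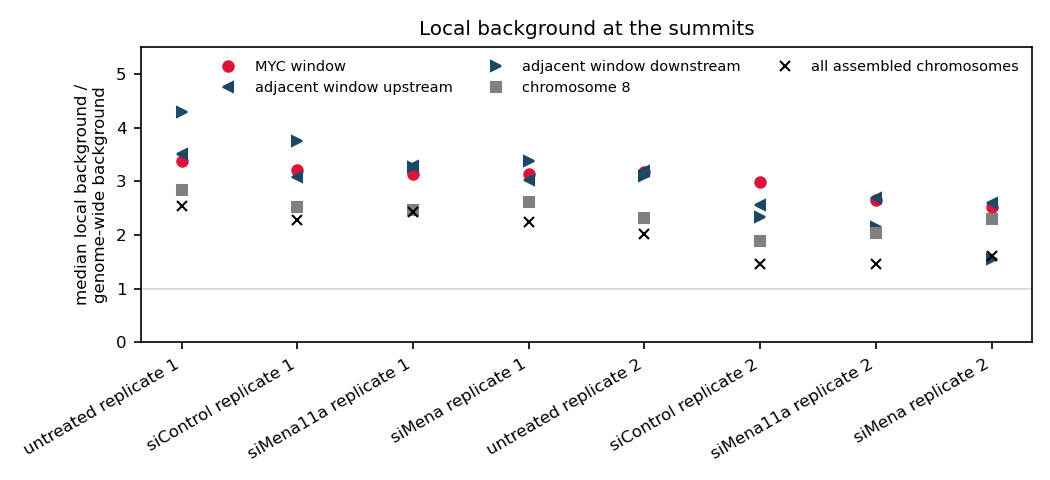
Median local background at summits relative to the genome-wide background (y axis, ratio) in each library (x axis). Red circles show the MYC window, triangles the adjacent windows of the same length, grey squares chromosome 8 and crosses all assembled chromosomes, and the line at 1 marks the genome-wide background. The red circles lie from 2.51 to 3.38, above the cross in all 8 libraries.

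Silencing of hMENA11a was set against siControl to see which members open or close with it. A member counted as gained if both siMena11a libraries listed it and neither siControl library did, and as lost in the opposite case. There was 1 gained member, against 0.0279% of all regions, and 0 lost, against 0.0557%, with 4 members in all 4 libraries. No region was tested singly, and with 2 libraries against 2 the smallest two-sided exact permutation p is 0.333. The gained member lay 341 kb downstream of MYC, from 129088821 to 129089664, with folds of 6.25 and 3.38 and 20 and 19 tags in siMena11a replicates 1 and 2. Both untreated libraries also listed it, with folds of 4.67 and 7.04, so the peak was missing in siControl and siMena alone. Its −log10 q in siMena11a replicate 2 was 3.13, and it was not gained under a stricter −log10 q of 5. Without siMena11a replicate 2 there were 16 gained members, against 24.0% of all regions. Without siMena11a replicate 1 there was 1 gained member (0.294% of all regions), as there was without either siControl library (0.746% and 0.0964%). The lost members became 4 without siMena11a replicate 1, against 5.35% of all regions, and 9 without siControl replicate 2, against 6.14%. Within replicate 1, siMena11a had 16 members (17.6%) that siControl lacked, against 24.2% of all regions, siControl had 9 (9.89%) that siMena11a lacked, against 6.25%, and 50 were shared. Within replicate 2, siMena11a alone had 1 member, against 1.03% of all regions, siControl alone had 4 (4.40%), against 5.97%, and 4 were shared.

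Fold at shared members differed little between siMena11a and siControl cells. In replicate 1 the median log2 ratio was 0.05 over the 50 shared members, of which 29 were higher in siMena11a, against a median of 0.13 and 65.5% higher over all shared regions. In replicate 2 it was -0.16 over 4 members (1 higher), against -0.18. For each library the median log2 fold over the 4 members in all lists was set against its own median at the 501 regions. These library medians had a mean of -0.35 ± 0.38 (SD, n = 2) in siMena11a and -0.43 ± 0.21 in siControl, a difference of 0.08 (two-sided exact permutation p = 1.00). It turned to -0.19 without siMena11a replicate 1 and to -0.07 without siControl replicate 2. The share of peaks in the window was 0.181% ± 0.00672 and 0.190% ± 0.0524, a difference of -0.00870 points (two-sided exact permutation p = 1.00), which became 0.0284 without siControl replicate 1.

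Silencing of hMENA as a whole was set against the same control. No member was gained, against 0.00214% of all regions, and none was lost, against 1.03%. The 8 members in both siControl libraries were all in siMena replicate 1, so none could count as lost, while 7 of them were missing in siMena replicate 2. Without siMena replicate 1 the lost members were therefore 7 (7.69%), against 8.38% of all regions. Without siControl replicate 2 they were 29 (31.9%), against 28.1%, and without siMena replicate 2 there were 2 gained, against 1.73%. Within replicate 1, 30 members were shared, 29 were in siControl alone, against 28.2% of all regions, and 2 in siMena alone, against 1.81%. These member shares were near those of all regions. The median log2 ratio of siMena to siControl over the shared 30 was -0.26, with 7 higher in siMena, against -0.29 and 18.8% higher over all shared regions. The 1 member in all 4 lists, 1188 kb upstream, had a mean log2 fold of -0.35 ± 0.43 in siMena and -0.27 ± 0.15 in siControl libraries relative to the 501 regions, a difference of -0.08 (two-sided exact permutation p = 1.00). It was 0.20 over 8 members without siMena replicate 2 and 0.02 without siControl replicate 1. The share of peaks in the window was 0.165% ± 0.0945 in siMena libraries, a difference from siControl of -0.0252 points (two-sided exact permutation p = 1.00), which turned to 0.0416 without siMena replicate 2 and 0.0119 without siControl replicate 1.

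Transfection itself was examined with siControl against untreated cells, the comparison with the most changed members. Both untreated libraries listed 39 members, and 7 of these were in neither siControl library. They made up 7.69% of all members, against 3.65% of all regions that were lost, and 17.9% of the members in both untreated libraries, against 9.80% of such regions. No member was gained, against 0.120% of all regions. The siControl lists held 27304 and 5231 peaks and the untreated lists 34782 and 22424. The count stayed at 7 without siControl replicate 2, against 3.78% of all regions. It rose to 31 (34.1%) without siControl replicate 1, against 27.7%, to 14 (15.4%) without untreated replicate 1, against 11.3%, and to 20 (22.0%) without untreated replicate 2, against 22.5%. With every list shortened to its 1020 best-scoring peaks it was 1. Under a stricter −log10 q of 5 it was 6, and it was 10 when a peak had to span 50% of the region. The matching shares of all regions were not computed for these settings, so these counts have no genome-wide reference. Gained members numbered 4 (4.40%) without siControl replicate 2, against 5.55% of all regions.

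The 7 lost members lay on both sides of MYC. In untreated replicates 1 and 2 the region 110 kb upstream (128637337 to 128637722) had folds of 5.34 and 4.01. Downstream, the folds were 5.74 and 6.44 at 96 kb (128843759 to 128844190) and 4.49 and 10.9 at 448 kb (129195379 to 129195903). At 931 kb (129678372 to 129678678) they were 4.55 and 9.0, and at 1052 kb (129799854 to 129800254) 5.68 and 10.1. The region at 1800 kb (130548003 to 130548343) had 12.1 and 6.94. The other is the region at 341 kb given above. In 5 of the 7 the fold was higher in untreated replicate 2, which was so in 10 of the other 32 members that both untreated libraries listed. Among all lost regions 42.4% had the higher fold in replicate 2, and among the other regions in both untreated libraries 19.1%. Of the 7, siMena11a replicate 1 listed those at 341, 448 and 1800 kb. The region at 1800 kb was also in siMena replicate 1, and that at 341 kb in siMena11a replicate 2. The other 4 were in untreated lists alone, and the matching share among all lost regions was not computed. Replicate 2 of siMena11a and siMena listed only 5.92% and 2.14% of all regions.

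At members that both kinds of cell listed, folds were lower after control transfection. In replicate 1 siControl had the lower fold in all but 6 of 54 shared members, with a median log2 ratio of -0.21. Over all shared regions the median was also -0.21, and 26.9% were higher in siControl. In replicate 2 the median was -0.91 over 8 members, none of them higher in siControl, against -0.69 and 4.19% over all shared regions. Relative to the 501 regions, each library's median log2 fold was taken over the 8 members in all 4 lists. The mean of these medians was -0.67 ± 0.24 (SD, n = 2) in siControl and -0.48 ± 0.05 in untreated libraries, a difference of -0.19 (two-sided exact permutation p = 0.667). The share of peaks in the window was 0.190% ± 0.0524 against 0.220% ± 0.00202, a difference of -0.0299 points (two-sided exact permutation p = 1.00), and 0.00713 without siControl replicate 2. With 2 libraries against 2 the smallest possible p of this test is 0.333, so it could not establish either difference, and no conclusion is drawn from it.

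Finally, siMena11a cells were compared with siMena cells. The region at 341 kb was the 1 member gained in siMena11a relative to siMena, against 0.240% of all regions, and 0 members were lost, against 0.00643%. Its 2 calls are not independent, as both rest on the same siMena11a libraries. Without siMena11a replicate 2 there were 35 gained members (38.5%), against 45.3% of all regions, and without siMena replicate 1 there were 4 (4.40%), against 3.86%. Leaving out siMena11a replicate 1 or siMena replicate 2 gave 1 gained member, against 0.538% and 0.339%. Without siMena replicate 2 there was 1 lost member, against 0.979%. In replicate 1 the median log2 ratio of siMena11a to siMena was 0.46 over 31 shared members, 24 of them higher in siMena11a, against 0.41 and 88.1% over all shared regions. At the 1 member in all 4 lists the difference relative to the 501 regions was 0.32 (two-sided exact permutation p = 0.667), and -0.11 over 4 members without siMena replicate 2. The shares of peaks differed by 0.0165 points (p = 1.00, exact permutation), and by -0.0503 without siMena replicate 2.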

How the data were processed

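Each of the 8 libraries has its own deposited peak list. Per the submitters' processing notes, the build was hg19 and the tools included MACS2 2.2.5, SAMtools 1.7, Bowtie2 2.3.4.2 and FastQC 0.11.5, while trimming, duplicate removal and any transposase shift are not given in the sources used here. The labels give total RNA as the molecule, while their protocol names ATAC-seq. The fold deposited by the authors is a ratio to local background, and the deposited −log10 p and −log10 q come from the peak caller, with lists ending at a q of 0.01. The deposited score is 10 times the −log10 q, rounded down, with 99.98% or more of rows fitting in every list.

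Overlapping or touching distinct intervals were merged into regions, and any peak sharing 1 bp or more with a region made it listed in that library. Its fold there is that of its highest summit, and its percentile is taken within the list. Whole tags and local background were recovered from fold and −log10 p with the Poisson formula, within 0.001 for 100.0% of rows in each list, a step checked on simulated data, as were the region calls. Groups were compared by gained and lost regions and by two-sided exact permutation tests. Regions named in the text are those near the MYC and PVT1 starts, those in all 8 lists, those gained or lost, the 10 with the highest median fold percentile among members in 4 or more lists, and the most listed one of each distance class. Other regions (7.4, 13.3, 65, 74, 164, 214 and 433 kb downstream and 697, 1178 and 1199 kb upstream) were added after their values were seen. The members and lists were chosen with earlier results of these data known. No hg19 annotation was used here, so the line's marker genes were not checked. Computation used matplotlib 3.10.9, SciPy 1.17.1, pandas 2.3.3 and numpy 2.4.6 under Python 3.11.15.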

Additional observations from a re-analysis of the deposited data

How the results depend on the processing

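The number of members was 90 with merging within 100 bp, 82 at a −log10 q of at least 5 and 178 in bins of 500 bp, where a region fills more than 1 bin. The gained member of siMena11a against siControl and against siMena was not called under the stricter threshold, in shortened lists or when a peak had to span 50% of the region. Each gave 0 in both comparisons. In siMena11a replicate 2 its peak had a −log10 q of 3.13 and spanned 229 of 844 bp, so the threshold and the cover were bound to remove it. That library held 3 members under the stricter threshold and 1 in shortened lists, which left little room for any gained call. Lost members of siControl against untreated numbered 6 under the stricter threshold, 10 with the 50% cover and 1 in shortened lists. The share of all regions lost under each of these settings was not computed. Leaving out 1 replicate at a time gave 1 to 16 gained and 0 to 9 lost members for siMena11a against siControl, 0 to 2 and 0 to 29 for siMena against siControl, 0 to 4 and 7 to 31 for siControl against untreated, and 1 to 35 and 0 to 1 for siMena11a against siMena. In the same order the difference in share of peaks ran from -0.0458 to 0.0284, -0.0920 to 0.0416, -0.0670 to 0.00713 and -0.0503 to 0.0833 points, and that in log2 fold from -0.19 to 0.24, -0.38 to 0.20, -0.36 to -0.16 and -0.11 to 0.63. For siMena11a against siControl the share difference was 0.0180 under the stricter threshold, and the log2 fold difference -0.04 with the 50% cover, over 1 member. The cause of these changes was not tested, beyond the unequal list lengths given above.

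With the replicate number as a block, the differences are the same by construction (share -0.00870, -0.0252, -0.0299 and 0.0165 points; log2 fold 0.08, -0.08, -0.19 and 0.32), and the exact p was 1.00 throughout except 0.50, the smallest possible, for the last. The block leaves gained and lost counts as they are. Deviations of listing from the group mean correlated between same-numbered libraries over all regions, with r of 0.349, 0.292, 0.0958 and 0.230 in the same order. Replicate 1 was the longer list in every group, and what sets these correlations was not tested. The labels do not say that a number marks a shared batch, and the prefix in the names of the replicate 2 lists is not explained. For the siMena comparisons, no fold could be had under the stricter threshold or the 50% cover. The lowest fold of a peak at the genome-wide background was 3.61 to 3.67 in replicate 2 of the transfected groups. In the other libraries it was 3.72 to 4.13. Members had higher local backgrounds, and the transfected replicate 2 lists held them at folds down to 2.92.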
